A study of Homo sapiens with 18 samples.

Results

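The 8 genes described here are TNFSF15, ALPP, UCA1, AQP5, CST1, LGALS12, MAGEC1 and CD34. They were chosen on the fold changes of MDA-MB-231 cells at day 3 or day 15 of G0S2 induction, where they stood among the steepest falls. All 8 are listed among the 14308 genes of the MDA-MB-231 table, and 2 of them, TNFSF15 and CD34, are listed among the 14768 genes of the T47D table. The 2 tables hold 16410 different genes. RNA was sequenced from 2 established human breast cancer lines that carry a G0S2 gene switched on by doxycycline. MDA-MB-231 is labelled ER- and T47D is labelled ER+ (ER is the estrogen receptor). Each line gave 3 control libraries at day 0 without doxycycline, 3 libraries at day 3 and 3 libraries at day 15 of doxycycline at 0.5 ug/ml. Every group value below rests on n = 3 libraries. No cells treated with doxycycline but lacking the introduced gene were analysed here, so G0S2, the drug and the vector cannot be told apart. Since no label ties the 3 libraries of a group to different cultures, the p-values cover the spread of these libraries alone, part of which may be technical.

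Levels are given as CPM, the read count of a gene relative to the size of its library. A log2 fold is the difference of mean log2 values between groups, and SE is its standard error in a limma fit over the 9 libraries of a line. Adjusted p-values use the Benjamini-Hochberg method over the whole table of a line, and a gene with an adjusted p under 0.05 is called. Because MDA-MB-231 values chose the 8 genes, their values in that line are a description and carry no test. T47D values took no part in the choice and are tested. The tables of the lines were normalized separately, so no difference between lines was tested.

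The 8 genes belong to unrelated families. TNFSF15 (TL1A) is a ligand of the tumor necrosis factor superfamily. It signals through the death receptor TNFRSF25, is bound by the decoy receptor TNFRSF6B, and is known as an inhibitor of endothelial cell growth. CD34 is a surface sialomucin of blood progenitors and endothelial cells. ALPP is the placental alkaline phosphatase, an enzyme anchored to the outer cell membrane, and AQP5 is a water channel of gland and airway epithelium. CST1 (cystatin SN) is a secreted inhibitor of cysteine proteases, and LGALS12 is a galectin, a sugar-binding protein, known from fat cells. MAGEC1 is a cancer-testis antigen, normally restricted to the germ line. UCA1 is a long non-coding RNA named for its expression in urothelial cancer.

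TNFSF15 and ALPP had the most similar profiles among the 8. The day 15 mean of CD34 lay below control in MDA-MB-231, where the groups overlapped, and above control in T47D. Sequences upstream of an annotated start of each of these 3 genes are therefore shown. They are the 250 bases before the RefSeq start on GRCh38.p14, from chr9:114792531-114792780 (minus strand), chr2:232378501-232378750 (plus strand) and chr1:207911126-207911375 (minus strand). Capitals mark an AP-1 motif, spelled TGANTCA, or a CCAAT box, named for its letters, or a GC box, spelled GGGCGG. Each was searched on both strands.
TNFSF15: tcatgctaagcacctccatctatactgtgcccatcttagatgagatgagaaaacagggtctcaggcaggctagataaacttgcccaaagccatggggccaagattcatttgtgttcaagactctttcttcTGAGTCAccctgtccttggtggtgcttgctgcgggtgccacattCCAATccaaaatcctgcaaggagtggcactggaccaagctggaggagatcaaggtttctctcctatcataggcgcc
ALPP: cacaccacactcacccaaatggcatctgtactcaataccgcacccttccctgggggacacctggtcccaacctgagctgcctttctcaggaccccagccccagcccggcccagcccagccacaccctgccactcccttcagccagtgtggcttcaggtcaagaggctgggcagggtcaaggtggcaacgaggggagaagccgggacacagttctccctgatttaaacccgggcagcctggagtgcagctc
CD34: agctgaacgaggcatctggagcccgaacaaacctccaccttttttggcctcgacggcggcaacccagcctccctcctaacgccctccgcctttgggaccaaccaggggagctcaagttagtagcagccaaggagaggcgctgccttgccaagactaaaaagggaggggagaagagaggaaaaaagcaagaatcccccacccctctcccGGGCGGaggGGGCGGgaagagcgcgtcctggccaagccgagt

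The TNFSF15 window holds 1 AP-1 motif, which begins at base -120 counted back from the start, and 1 CCAAT box, which begins at base -76. An AP-1 motif is present in 6.6% of the 35116 promoter windows of this length, a CCAAT box in 32% and a GC box in 42.6%. The CD34 window holds 2 GC boxes. The ALPP window holds none of the 3 motifs, and in none of the 3 windows was the NF-kB consensus, a TATA box spelled TATAAA or an E-box spelled CACGTG matched. GC content was 50% for TNFSF15, 62.8% for ALPP and 61.6% for CD34, against a median of 58.0% over all windows. A promoter entry was found for 5 of the 8 genes; in the AQP5 window GC content was 84.4%, higher than in 99.4% of windows, and 4 GC boxes were present. In each of the 3 shown genes the RefSeq start lies inside the longer GENCODE gene, so other starts are annotated. The TNFSF15 window lies wholly within the gene, whose outermost start on the minus strand is at 114806126. The CD34 window also lies within its gene, which starts at 207911402, and most of the ALPP window lies past the gene start at 232378534. Which start these cells use was not tested. These matches describe letters in a window and say nothing of a bound factor.

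In control MDA-MB-231 cells the 8 genes spanned a wide range of levels. Per kilobase of GENCODE exon, the control level was highest for CST1 (20.1 to 21.0 CPM per kb), followed by ALPP (12.8 to 13.8) and UCA1 (9.98 to 10.4). TNFSF15 came next with 2.60 to 2.97 CPM per kb. The levels of AQP5 (1.61 to 2.30 CPM per kb) and LGALS12 (1.93 to 2.28) overlapped, MAGEC1 lay lower (0.85 to 1.04), and CD34 was the lowest of the 8 (0.29 to 0.33).

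As a check of the labels, G0S2 itself, an inhibitor of the triglyceride lipase PNPLA2, was called higher in each line and at each time, with a log2 fold of 5.87 and 5.57 in MDA-MB-231 and of 10.67 and 10.61 in T47D. The library size recovered from the values was 36.7 to 52.3 M reads for MDA-MB-231, and T47D libraries held 39.9 to 50.6 M reads. All 10 MDA-MB-231 identity markers were listed in MDA-MB-231. Of the 11 T47D identity markers, 8 were listed there too, and ESR1, PGR and FOXA1 were not. All 11 T47D identity markers were listed in T47D, as were 3 of the 10 MDA-MB-231 identity markers. The day 15 replicate 2 library of T47D stood apart from the other libraries of its group, with a chi-square per gene of 14.5 and 23.5 against 4.29 for the remaining pair, so T47D day 15 results are also given without it.

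Across all genes of MDA-MB-231, 1.77% were called in either direction at day 3 and 0.874% were called lower. At day 15, 8.2% were called and 4.77% were called lower. The libraries of day 3 lay wholly below the controls for 10.1% of all genes, and those of day 15 for 12.6%. Among the 8 genes, 7 lay wholly below the controls at day 3 and 7 at day 15, which the choice of the genes largely fixes. In bulk RNA, fewer expressing cells and less RNA per cell cannot be told apart. The exceptions were MAGEC1 at day 3 and CD34 at day 15. The median log2 fold of the 8 was -0.59 at day 3 and -0.80 at day 15, beside a median over all genes of 0.002 and 0.001.

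TNFSF15 (ENSG00000181634.7, GRCh38 chromosome 9, 114784635 to 114806126, minus strand) had 20.5, 22.6 and 23.4 CPM in the control libraries of MDA-MB-231. It had 12.7, 12.3 and 12.3 CPM at day 3, and 9.71, 9.54 and 11.1 CPM at day 15. The 3 groups did not overlap and the level was lower at each step, to 56.0% of the control mean at day 3 and 45.7% at day 15. The log2 fold was -0.83 (SE 0.067) at day 3 and -1.13 (SE 0.067) at day 15, and the step from day 3 to day 15 was -0.30 (SE 0.067).

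ALPP (ENSG00000163283.6, chromosome 2, 232378534 to 232382889, plus strand) followed the same order. Its control libraries had 42.2, 40.8 and 39.2 CPM, its day 3 libraries 27.3, 26.7 and 27.9 CPM, and its day 15 libraries 24.6, 23.8 and 22.5 CPM. The groups were again separate, with a log2 fold of -0.58 (SE 0.046) at day 3 and -0.78 (SE 0.046) at day 15. The close paralog ALPG has 97.8% identical coding bases. Of the 50-base windows of the ALPP transcript, 32.4% are found in transcripts of other genes, so reads of ALPP can be shared. Most were shared with ALPG, then with the opposite-strand RNA AC068134.1 and the paralog ALPI. ALPG was not listed in the table.

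AQP5 (ENSG00000161798.6, chromosome 12, 49961870 to 49965681, plus strand) was a low gene, with 157 to 186 reads per control library. Its control libraries had 4.33, 3.44 and 3.04 CPM, its day 3 libraries 2.22, 2.14 and 2.08 CPM, and its day 15 libraries 2.29, 1.80 and 2.10 CPM. Both induced groups lay below the controls and overlapped each other. This gave a log2 fold of -0.71 (SE 0.14) at day 3 and -0.77 (SE 0.14) at day 15.

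LGALS12 (ENSG00000133317.14, chromosome 11, 63506084 to 63516774, plus strand) had 5.17, 5.15 and 4.38 CPM in controls. Day 3 libraries had 3.37, 3.52 and 3.75 CPM and day 15 libraries 2.83, 3.13 and 2.04 CPM. The groups did not overlap, and the day 15 libraries spread more widely than those of day 3. Relative to control, the log2 fold was -0.46 (SE 0.13) at day 3 and -0.88 (SE 0.13) at day 15.

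**Figure D1:**
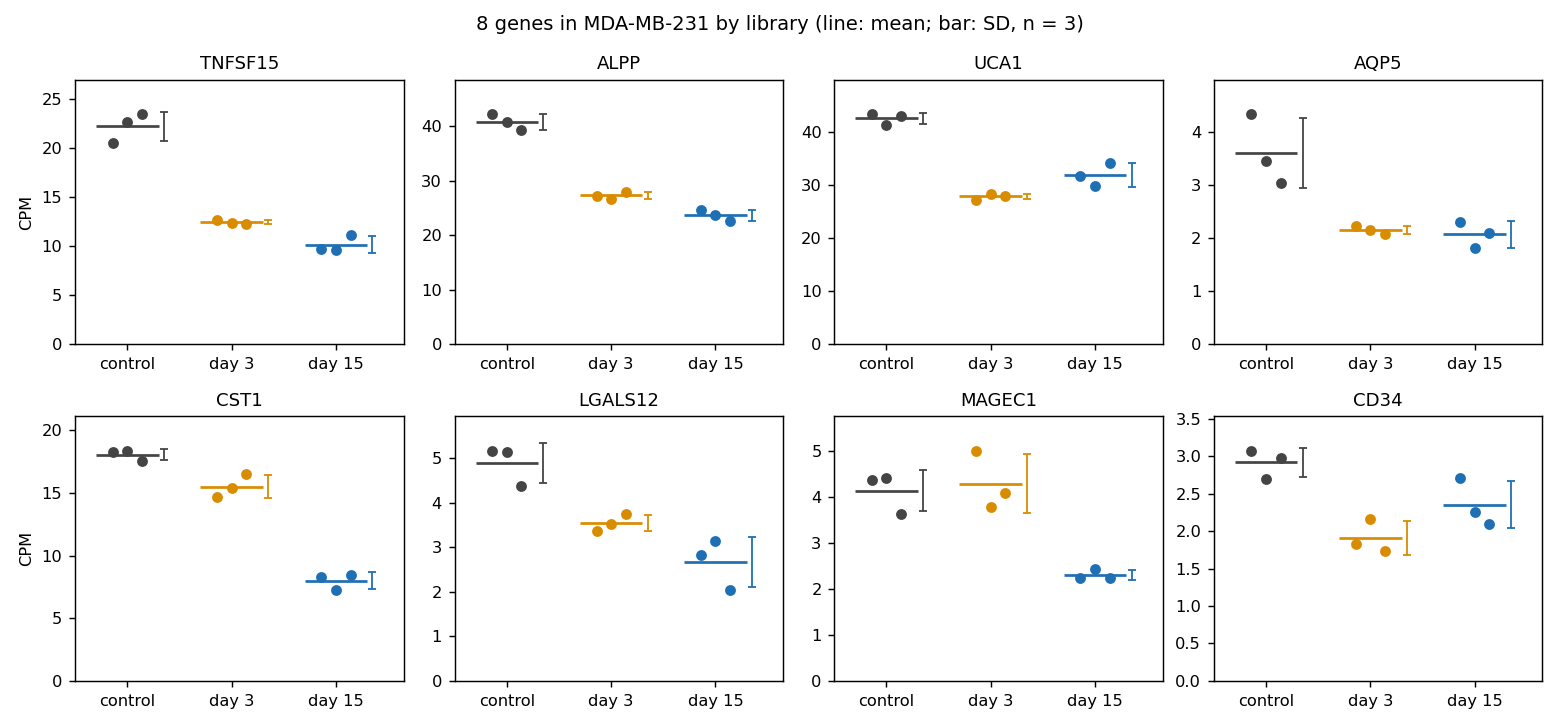
CPM of the 8 genes in each MDA-MB-231 library (points) by group, with the group mean (line) and SD (bar, n = 3); each panel has its own axis from 0. TNFSF15, ALPP and LGALS12 are lower at day 15 than at day 3, CST1 and MAGEC1 are lowest at day 15, and UCA1 and CD34 have lower means at day 3 than at day 15.

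CST1 and MAGEC1 had the later timing. CST1 (ENSG00000170373.8, chromosome 20, 23747553 to 23751268, minus strand) had 18.2, 18.4 and 17.5 CPM in controls and 14.7, 15.4 and 16.5 CPM at day 3. At day 15 it had 8.26, 7.26 and 8.48 CPM, or 44.4% of the control mean. The log2 fold was -0.22 (SE 0.067) at day 3 and -1.17 (SE 0.067) at day 15, and most of the difference arose between day 3 and day 15, at -0.95 (SE 0.067).

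MAGEC1 (ENSG00000155495.8, chromosome X, 141903894 to 141909388, plus strand) had 4.37, 4.43 and 3.63 CPM in controls and 5.01, 3.80 and 4.09 CPM at day 3. These groups overlapped. At day 15 all 3 libraries were lower, with 2.25, 2.44 and 2.24 CPM. Its log2 fold was 0.05 (SE 0.12) at day 3 and -0.82 (SE 0.12) at day 15.

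UCA1 and CD34 had their lowest mean at day 3. UCA1 (ENSG00000214049.7, chromosome 19, 15828206 to 15836326, plus strand, lincRNA) had 43.4, 41.4 and 43.1 CPM in controls, 27.3, 28.4 and 28.0 CPM at day 3, and 31.7, 29.8 and 34.3 CPM at day 15. All day 15 libraries lay above all day 3 libraries and below all controls. Its log2 fold was -0.61 (SE 0.047) at day 3 and -0.42 (SE 0.047) at day 15, a step of 0.19 (SE 0.047) between them. An annotated RNA on the opposite strand, LINC01764, covers 7648 bases of the UCA1 gene. Opposite-strand RNAs also overlap ALPP (AC068134.1, 2040 bases), AQP5 (AC025154.2, 1055 bases) and CD34 (AL356275.2, 1411 bases). Whether counting used the strand is not given in the sources used here.

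CD34 (ENSG00000174059.16, chromosome 1, 207880972 to 207911402, minus strand) had 3.07, 2.70 and 2.98 CPM in controls and 1.83, 2.16 and 1.74 CPM at day 3. At day 15 the libraries had 2.71, 2.25 and 2.10 CPM, and the highest of them exceeded the lowest control. The log2 fold was -0.60 (SE 0.14) at day 3 and -0.31 (SE 0.14) at day 15. With 75 to 156 reads per library, CD34 had the fewest reads of the 8 in control cells.

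**Figure D2:**
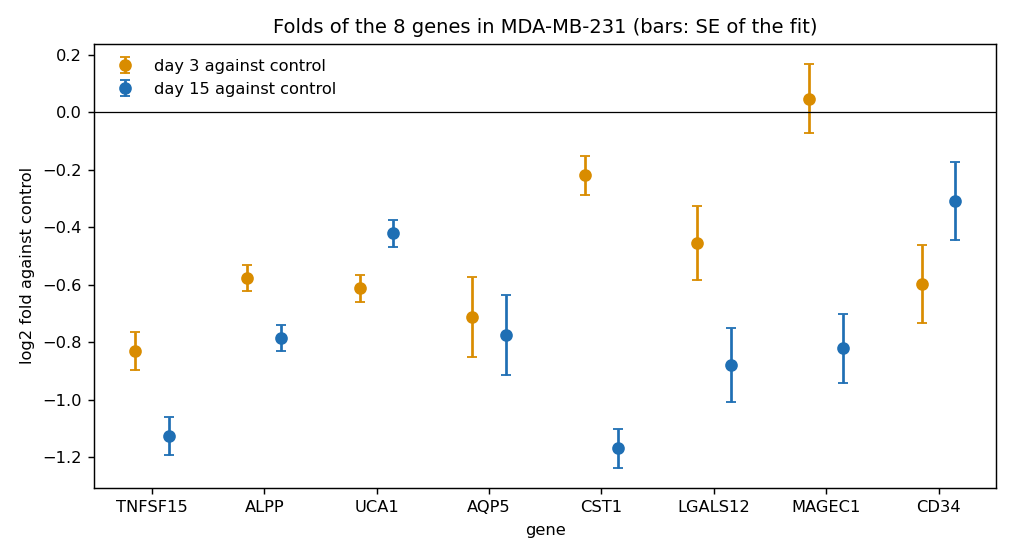
Log2 fold against control of the 8 genes in MDA-MB-231 at day 3 (orange) and day 15 (blue), with bars for the SE of the fit over 9 libraries; the horizontal line marks no difference. CST1 and MAGEC1 differ most between the times, at -0.22 and -1.17 and at 0.05 and -0.82, while AQP5 is alike at both, at -0.71 and -0.77.

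A rule took the 6 steepest falls among called genes, leaving out genes with LOC, LINC or antisense (-AS) names. It also asked for a mean log2 value of 1 or more and no overlap with controls. By this rule ALPP was the last inside at day 3 (log2 fold -0.58), and AKR1C1 stood just outside (-0.54). At day 15 AQP5 was the last inside (-0.77) and AKR1C2 stood just outside (-0.72). Among all genes of the line, without these limits, the fall of ALPP ranked 43 at day 3 and that of AQP5 ranked 27 at day 15. AKR1C2 was inside at day 3 (-0.61) and is not among the 8 genes.

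In T47D, TNFSF15 was listed at a lower level and no change passed the test. It had 4.66, 5.18 and 4.68 CPM in controls, 4.57, 4.64 and 4.27 CPM at day 3, and 4.94, 4.46 and 5.01 CPM at day 15. The day 3 libraries lay just below the controls and the day 15 libraries overlapped them. The log2 fold at day 3 was -0.10 (95% interval -0.30 to 0.09, limma adjusted p = 0.814), where 1.88% of all T47D genes were called. At day 15 it was -0.01 (95% interval -0.21 to 0.19, adjusted p = 0.959).

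CD34 was higher at day 15 in T47D. It had 6.97, 6.41 and 6.96 CPM in controls and 6.91, 7.08 and 6.69 CPM at day 3, which overlapped. At day 15 it had 11.0, 10.4 and 11.8 CPM, so all 3 libraries lay above all of the others. The log2 fold was 0.02 (SE 0.076, limma adjusted p = 0.976) at day 3. It was 0.70 at day 15 (SE 0.076, limma adjusted p = 3.16e-05), when 11.2% of T47D genes were called and 5% were called higher. CD34 also rose from day 3 to day 15 by 0.67 (SE 0.076, limma adjusted p = 6.87e-05), a comparison in which 5.58% of genes were called and 2.23% were called higher. Without day 15 replicate 2 the day 15 fold against control was 0.74 (limma adjusted p = 6.38e-08). The difference between the lines was not tested.

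**Figure D3:**
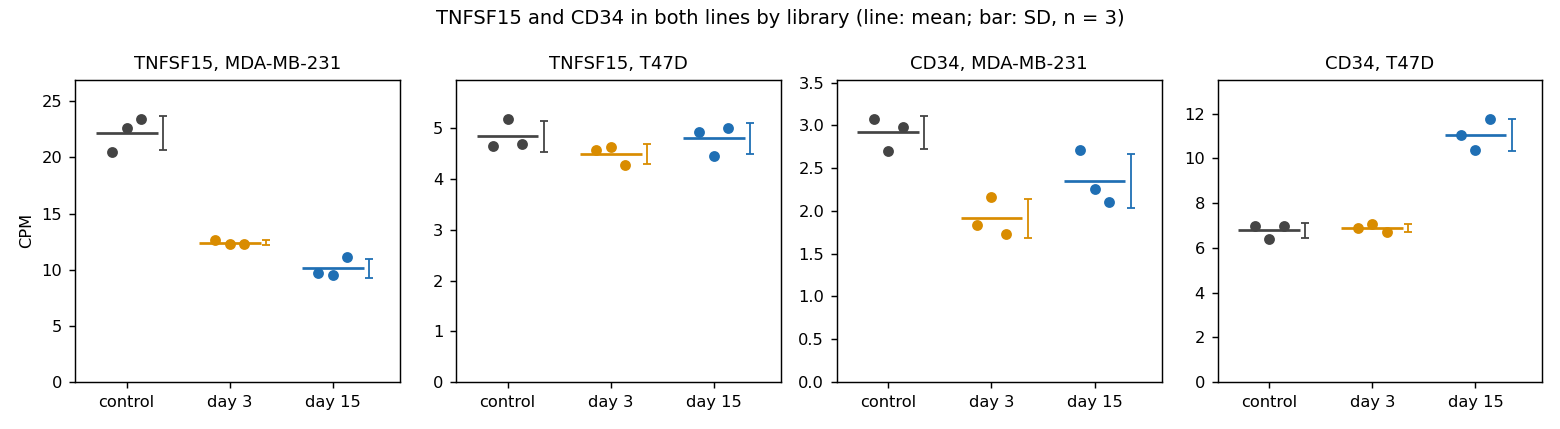
CPM of TNFSF15 and CD34 in each library of MDA-MB-231 and T47D (points) by group, with the group mean (line) and SD (bar, n = 3); each panel has its own axis from 0 and the lines were normalized separately. CD34 at day 15 reaches 10.4 to 11.8 CPM in T47D and 2.10 to 2.71 CPM in MDA-MB-231, and TNFSF15 in T47D stays between 4.27 and 5.18 CPM.

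CD34 marks endothelial and blood cells, so markers of both were examined. In MDA-MB-231, 5 of 11 endothelial markers were listed, and none was called. Their summed level was 105.5 to 116.0 CPM in controls, 104.9 to 110.4 at day 3 and 103.4 to 107.2 at day 15. CDH5, TEK, TIE1, VWF, CLDN5 and ERG were not listed. In T47D, 2 of 11 were listed, with a sum of 3.66 to 4.34 CPM in controls and 3.80 to 5.40 CPM at day 15, and neither was called. Of the 12 blood cell and progenitor markers, 2 were listed in MDA-MB-231, neither called. In T47D 3 were listed, and PROM1, a stem cell surface protein, was lower at day 3 (log2 fold -0.93) and day 15 (-1.16). The day 3 call of PROM1 was lost when any 1 of the 6 libraries was left out (adjusted p 0.0539 to 0.265), and its day 15 call held in 11 of 11 alternatives. None of the 7 adipocyte markers and none of the 11 gland acini markers was listed in MDA-MB-231. In T47D 3 adipocyte markers were listed, and FABP4 was lower at day 15 (-1.19), a call lost without control replicate 1 (adjusted p = 0.0703). The 1 gland marker listed there, PIP, was lower at day 3 (-0.51) and day 15 (-0.43), the latter in every alternative. Of 13 trophoblast markers, 5 were listed in MDA-MB-231 and none was called. Their summed level was 31.6 to 35.4 CPM in controls and 30.3 to 32.1 CPM at day 15. In T47D 3 were listed, and all were higher at day 15: HLA-G (0.73), GATA3 (0.18) and TFAP2C (0.13). Their sum was 1306 to 1325 CPM in controls and 1452 to 1526 CPM at day 15. GATA3 stayed called in every alternative. HLA-G and TFAP2C were not called with replicate 1 of either group excluded. For HLA-G, excluding replicate 3 of either group did the same. Adjusted p then was 0.0605 to 0.115 for HLA-G and 0.0684 to 0.0792 for TFAP2C. Of 8 fibroblast markers 4 were listed in MDA-MB-231, and PDGFRB was lower at day 15 (-0.52). The keratins KRT8 (-0.22) and KRT18 (-0.17) and the cadherin CDH1 (-0.81), all T47D identity markers, were also lower in MDA-MB-231 at day 15. Higher were 3 of the 10 MDA-MB-231 identity markers, VIM (0.114), EGFR (0.096) and ZEB1 (0.148). The median log2 fold of the 10 was 0.041. EGFR was no longer called once control replicate 2 was dropped (adjusted p = 0.0532). The same held for ZEB1 with control replicate 1 dropped (adjusted p = 0.0656). At day 3, KRT8 (-0.13) and KRT18 (-0.13) were lower there. The KRT8 call of day 3 was lost without control replicate 1 or 2 or day 3 replicate 1 or 3 (adjusted p 0.0561 to 0.0938), and that of KRT18 without control replicate 1 or day 3 replicate 2 (adjusted p 0.0618 and 0.0624). In T47D at day 15, where CD34 was higher, 2 of the 11 T47D identity markers were higher and 3 lower, with ESR1 at -0.16, PGR at -0.18 and GATA3 at 0.18. PGR was also lower at day 3 (-0.13), a call that ended when any 1 of the 6 libraries was left out (adjusted p 0.0577 to 0.208). Of the 3 MDA-MB-231 identity markers listed in T47D, 2 were lower at day 15, CD44 (-0.54) and EGFR (-0.19), the latter not without control replicate 2 or day 15 replicate 1 (adjusted p 0.0561 and 0.0564). The part of these differences in the levels of the 8 genes was not tested.

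The signaling chain of TNFSF15 was represented by 17 of 19 listed genes in MDA-MB-231, and 2 of them were lower at day 3 (median log2 fold of the 17 -0.02). NFKBIA, the inhibitor that holds NF-kB in the cytoplasm, fell by 0.23 on the log2 scale (SE 0.037, limma adjusted p = 0.000508), from 46.6 to 48.1 CPM to 39.7 to 41.6 CPM. BIRC3, a ubiquitin ligase of TNF receptor complexes, fell by 0.18 (SE 0.039, limma adjusted p = 0.0114), a call lost without control replicate 3 or day 3 replicate 2 (adjusted p 0.0507 and 0.0942). At day 15, 3 were lower and 1 higher (median log2 fold -0.01). NFKBIA and BIRC3 were joined by the adaptor TRAF2 (-0.18, SE 0.050, adjusted p = 0.0241), and the protease CASP8 was higher (0.22, SE 0.047, adjusted p = 0.00419). The TRAF2 call was lost without control replicate 1, control replicate 2 or day 15 replicate 3 (adjusted p 0.111 to 0.144). In T47D, TNFRSF25 was listed at 1.69 to 2.58 CPM in controls and was not called at either time. TNFAIP3, an NF-kB feedback inhibitor, was the 1 member called there at day 3 (0.72, SE 0.14, limma adjusted p = 0.00885). Leaving out control replicate 2 or day 3 replicate 2 ended this call (adjusted p 0.0524 and 0.0785). BIRC3 went the other way in T47D, with a log2 fold of 0.41 at day 15 (SE 0.066, limma adjusted p = 0.000952). The difference of BIRC3 between the lines was not tested.

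Of the other TNF superfamily ligands, 7 of 17 were listed in MDA-MB-231. None was called at day 3, and 2 were lower at day 15. TNFSF10 (TRAIL), which triggers death receptors, fell by 0.29 (SE 0.056, limma adjusted p = 0.00179), and EDA (ectodysplasin) fell by 0.36 (SE 0.10, adjusted p = 0.0254). The EDA call was lost without control replicate 1, day 15 replicate 1 or day 15 replicate 2 (adjusted p 0.0534 to 0.179). The median log2 fold of the 7 was -0.19 at day 15. In T47D, TNFSF10 was higher at day 3 (0.48, SE 0.096, limma adjusted p = 0.0149), a call lost without any 1 control library, day 3 replicate 1 or day 3 replicate 3 (adjusted p 0.0554 to 0.121). The difference between the lines was not tested.

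The cystatin cluster on chromosome 20 holds the closest relatives of CST1, and 3 of 6 listed cystatins other than CST1 were lower at day 15 in MDA-MB-231. CST4 (cystatin S) lies 58.5 kb from CST1 on 1 side and CST2 (cystatin SA) lies 72.5 kb away on the other. CST4 ranged over 7.42 to 8.47 CPM in controls, 7.11 to 7.50 in day 3 libraries and 4.27 to 5.40 in day 15 libraries. Its log2 fold was -0.11 at day 3 (not called) and -0.71 at day 15 (SE 0.090, limma adjusted p = 5.87e-06). CST2 had a log2 fold of -0.22 at day 3 (not called) and -0.63 at day 15 (SE 0.18, adjusted p = 0.0294), and its call was lost without control replicate 1, control replicate 3 or day 15 replicate 2 (adjusted p 0.0712 to 0.165). CST3 (cystatin C), the widely expressed family member, fell by 0.22 at day 15 (SE 0.032, adjusted p = 5.06e-05). Reads of CST1, CST4 and CST2 can be shared, since the coding sequences of CST4 and CST2 are 92.7% and 91.3% identical to that of CST1 and 27.3% of the 50-base windows of CST1 are found in other genes. How such reads were counted is not given in the sources used here. CST3 has 72.1% identity. In T47D the list had 4 members listed and 2 higher at day 15, CST3 (0.19, SE 0.050, adjusted p = 0.0244) and CST6 (1.30, SE 0.37, adjusted p = 0.0399). The CST3 call was lost without any 1 control library or without day 15 replicate 1 (adjusted p 0.0623 to 0.109), and that of CST6 without control replicate 1, control replicate 3 or day 15 replicate 1 (adjusted p 0.0521 to 0.129). Of the cysteine cathepsins and legumain, the proteases that cystatins inhibit, 11 were listed in MDA-MB-231 and 1 was called, legumain (LGMN), at -0.11 (SE 0.035, adjusted p = 0.0444) at day 15. That call was lost without control replicate 1, control replicate 2, day 15 replicate 1 or day 15 replicate 3 (adjusted p 0.107 to 0.244).

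**Figure D4:**
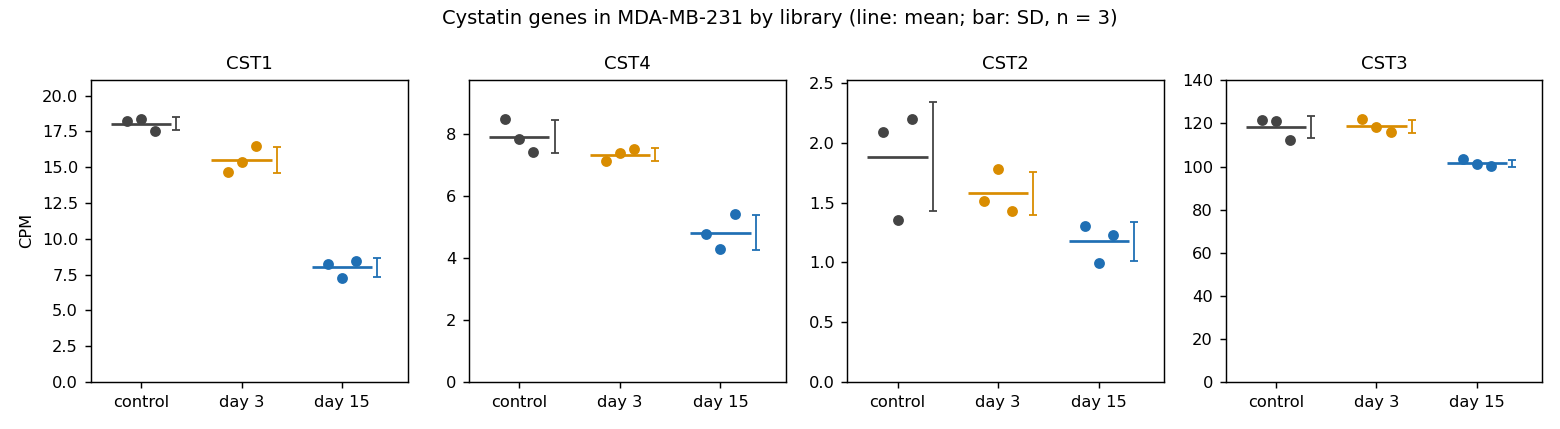
CPM of CST1 and 3 other cystatin genes in each MDA-MB-231 library (points) by group, with the group mean (line) and SD (bar, n = 3); each panel has its own axis from 0. Day 15 libraries are lowest for CST1, CST4, CST2 and CST3, with CST3 at 100.1 to 103.4 CPM against 112.3 to 121.5 CPM in controls.

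Of the aquaporins other than AQP5, 3 of 13 were listed in MDA-MB-231. None was called at day 3, and 2 were lower at day 15. AQP3, a channel for water and glycerol, went from 16.9 to 17.8 CPM in controls to 13.3 to 15.4 CPM (log2 fold -0.30, SE 0.062, limma adjusted p = 0.00268). AQP1, a water channel at low level here, had a log2 fold of -0.75 (SE 0.21, adjusted p = 0.0261). AQP1 lost its call when control replicate 1, control replicate 2 or day 15 replicate 1 was left out (adjusted p 0.089 to 0.115).

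The relatives of ALPP, LGALS12 and MAGEC1 gave few calls in MDA-MB-231. Of 8 listed alkaline phosphatases and surface phosphate enzymes, NT5E (CD73) was higher at day 15 (0.20, SE 0.020, limma adjusted p = 1.32e-07) and no other was called. Of 6 listed galectin genes other than LGALS12, LGALS3BP, which encodes a galectin-binding protein, was lower at day 15 (-0.12, SE 0.026, adjusted p = 0.00483). Of 7 listed MAGE genes, MAGED1 was higher at day 3 (0.16, SE 0.033, adjusted p = 0.00899) and none was called at day 15. Leaving out control replicate 1 ended the call of LGALS3BP (adjusted p = 0.0588), and leaving out control replicate 1 or day 3 replicate 1 ended that of MAGED1 (adjusted p 0.0507 and 0.11). MAGEC2, the neighbor of MAGEC1, had 1.53 to 2.21 CPM in controls and 1.92 to 2.20 CPM at day 15 (log2 fold 0.11, SE 0.15, adjusted p = 0.702). Of 11 listed adipocyte and lipid droplet genes, lipoprotein lipase (LPL) was higher (0.59, SE 0.14, adjusted p = 0.00847) and PNPLA2 lower (-0.24, SE 0.044, adjusted p = 0.000793) at day 15.

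ALPP, LGALS12 and MAGEC1 are not listed in T47D, but relatives of each were called there. At day 15, 3 of 9 phosphate enzyme genes were lower, led by ENPP1, which makes pyrophosphate outside the cell (-0.79, SE 0.090, limma adjusted p = 4.59e-05). Of 5 galectin genes 2 were higher and 1 lower, led by LGALS3BP (0.62, SE 0.096, limma adjusted p = 0.00114), which was also higher at day 3 (1.28). Of 10 MAGE genes 2 were higher, led by MAGEA1 (1.14, SE 0.22, limma adjusted p = 0.00336). Of 7 other cancer-testis antigens 3 were higher and 1 lower, among them SSX1 (0.75, SE 0.13, adjusted p = 0.00209) and PRAME (0.45, SE 0.032, adjusted p = 3.81e-07). The day 15 calls of ENPP1, LGALS3BP, MAGEA1, SSX1 and PRAME held in every alternative run, and each other day 15 call in these counts was lost without 1 or more single libraries. MAGEA1 and SSX1 had mean log2 values under 1, so the run with that floor left them out. These differences between the lines were not tested.

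CD34 belongs with PODXL and PODXL2 to a small family of sialomucins. Among 7 listed family members and partners in MDA-MB-231, PODXL was lower at day 3 (-0.09, SE 0.021, limma adjusted p = 0.03), a call lost without any 1 of the 6 libraries (adjusted p 0.0514 to 0.207), and none was called at day 15. In T47D, 3 of 6 were higher at day 15: PODXL (0.22, SE 0.066, adjusted p = 0.0481), the membrane linker ezrin, EZR (0.12, SE 0.030, adjusted p = 0.0198), and its partner SLC9A3R1 (0.16, SE 0.037, adjusted p = 0.0114). Each of these calls was lost without control replicate 1 or day 15 replicate 1. Those of PODXL and EZR were also lost without control replicate 2, and that of PODXL without control replicate 3 or day 15 replicate 3. The adjusted p then was 0.061 to 0.209 for PODXL, 0.0807 to 0.0962 for EZR and 0.0556 to 0.07 for SLC9A3R1. All 11 listed genes reported upstream of UCA1, among them the hypoxia factor HIF1A, were not called in MDA-MB-231 at either time. Over all genes 1.77% were called at day 3 and 8.2% at day 15, so few calls would be looked for among 11.

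The nearest listed genes on either side of each of the 8 were examined in MDA-MB-231. Of these 16 neighbors none was called at day 3, when 1.77% of all genes were called. At day 15, when 4.77% of all genes were called lower, 4 were lower: CST4 and CST2 beside CST1, and TMEM268 and TNC beside TNFSF15. CST4 and CST2 can share reads with CST1. TMEM268 lies 138.2 kb from TNFSF15 (log2 fold -0.20, SE 0.063, limma adjusted p = 0.0421), and TNC, the matrix protein tenascin C, lies 213.5 kb away (-0.15, SE 0.034, adjusted p = 0.00703). The TMEM268 call was lost without control replicate 1, control replicate 2, day 15 replicate 2 or day 15 replicate 3 (adjusted p 0.0822 to 0.173), and the TNC call without control replicate 2 (adjusted p = 0.097). In T47D TNC, whose mean log2 value there was under 1, fell by 2.82 at day 15 (SE 0.27, limma adjusted p = 9.7e-06). PLXNA2, a semaphorin receptor 110.8 kb from CD34, was higher in T47D at day 15 (0.57, SE 0.091, adjusted p = 0.00098) and not called in MDA-MB-231. The nearer neighbor of CD34, MIR29B2CHG at 1.88 kb, had a log2 fold of -0.02 in T47D at day 15 (SE 0.16, adjusted p = 0.965). TMEM268 was lower in T47D at day 15 (-0.13, SE 0.039, adjusted p = 0.0463), a call lost without any 1 control library, day 15 replicate 1 or day 15 replicate 3 (adjusted p 0.0642 to 0.166). The T47D day 15 calls named for CD34, BIRC3, TNC, TMEM268, PLXNA2, CST3, CST6, PODXL, EZR and SLC9A3R1 held without day 15 replicate 2.

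Profiles of the 8 genes were compared over the 9 MDA-MB-231 libraries, and the correlations are descriptions over libraries that share 3 groups. TNFSF15 and ALPP were the most similar pair (Pearson r = 0.964), followed by AQP5 and ALPP (0.926), while MAGEC1 and CD34 were the least similar (-0.075). Among 11818 genes with a mean log2 value of 1 or more, the gene most like TNFSF15 was BIRC3 (r = 0.986), then TIMP3 (0.982). For ALPP it was AKR1C1 (0.993), then CSF1 (0.986), and for CST1 it was CST4 (0.981), then MAL2 (0.980). UCA1 was closest to PPME1 (0.978), AQP5 to ALDH1B1 (0.974), LGALS12 to OGDH (0.988), MAGEC1 to ITPR3 (0.985) and CD34 to PTDSS1 (0.953). Pearson r takes no account of the size of a fold. At day 3 and day 15, log2 folds were -0.54 and -0.72 for AKR1C1 and -0.11 and -0.71 for CST4. PPME1 had -0.33 and -0.20, BIRC3 -0.18 and -0.24, and ALDH1B1 -0.11 and -0.10. Values were -0.06 and -0.125 for OGDH, 0.008 and -0.121 for ITPR3, and -0.075 and -0.032 for PTDSS1.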

How the data were processed

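Each line has 1 table, deposited as log2 CPM for each gene in each library, a unit inferred from the values themselves. Per the submitters' processing notes, STAR, featureCounts and limma were used with build GRCh38.p13, without versions. No source used here gives the normalization, the low-count filter or the strand setting of the counting. Reads and CPM were recovered from the deposited log2 values by removing a pseudocount of 3 reads, which left whole numbers (within 0.1) for every value below 1000 reads. A log2 fold on this scale understates the change of low genes. The series text names parental and resistant lines, unlike the sample labels, which were followed.

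limma 3.58.1 (R 4.3.3, statmod 1.5.0) was fitted to the log2 values of each line (9 libraries) with group means, trend and robust moderation, after the script had been tested on simulated data. The precision of low genes is limited by their read counts. Reads are given for AQP5 and CD34, and an upper bound for LGALS12 and MAGEC1, but not for other low genes. CDH1, AQP1 and CST2 in MDA-MB-231 and TNC, CST6, FABP4, PROM1, MAGEA1 and SSX1 in T47D had mean log2 values under 1. A chi-square over genes found more than sampling noise between any pair of libraries in a group. The 8 genes, the related gene lists and the tests were chosen with earlier results of these data known. Genes named were the 8, G0S2, up to 4 called members per list, nearest paralogs and neighbors, and of the 3 most alike genes by Pearson r the first 1 or 2. Positions, exon lengths and transcript windows come from GENCODE on GRCh38, and promoter windows from RefSeq on GRCh38.p14. Alternatives were a replicate block, an added pseudocount of 1 CPM, a mean log2 floor of 1, median centring, no trend or robust moderation, the compared groups alone, and each library left out.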

Additional observations from a re-analysis of the deposited data

Results flagged for a closer look

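CD34 moved in opposite directions in the lines at day 15. All 3 day 15 libraries lay below the control mean in MDA-MB-231 (log2 fold -0.31) and all 3 lay above it in T47D (0.70). The difference between the lines was not tested, because the tables were normalized separately. The MDA-MB-231 value rests on 77 to 156 reads per library, its groups overlapped, and values of that line chose CD34.

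CD34 in T47D also differed between the times of induction, with a log2 fold of 0.67 for day 15 against day 3 (limma adjusted p = 6.87e-05, all 3 day 15 libraries above all 3 day 3 libraries). With each library left out in turn, this fold ranged from 0.629 to 0.72.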

How the results depend on the processing

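In MDA-MB-231, 282 of 288 alternative fold values of the 8 genes moved by less than 1 residual SD. Many of these could not move. The replicate block, the mean log2 floor, the fit without trend or robust moderation and the compared groups alone leave a difference of group means unchanged. The tally is therefore no measure of robustness. The other 6 values came with the added pseudocount of 1 CPM, which shrinks folds of low genes (CD34 at day 3 from -0.60 to -0.42, AQP5 at day 15 from -0.77 to -0.57). In T47D the CD34 calls held in every alternative run (adjusted p up to 0.00114), and no alternative gave a TNFSF15 call (lowest adjusted p 0.374). Uncalled T47D folds near 0 changed sign when a library was left out: CD34 at day 3 ranged from -0.016 (without control replicate 2) to 0.044, and TNFSF15 at day 15 from -0.043 to 0.041 (positive without control replicate 2 or day 15 replicate 2). In MDA-MB-231, MAGEC1 at day 3 turned to -0.043 without control replicate 3 and to -0.066 without day 3 replicate 1, and the step of AQP5 from day 3 to day 15 turned to 0.03 without day 15 replicate 2.

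Counts of called genes depended on the processing. In MDA-MB-231 the 253 calls of day 3 were 63 without trend or robust moderation, 476 with the 2 groups alone and 119 to 259 with a library left out, the lowest without day 3 replicate 2. The 1173 calls of day 15 were 232, 776 and 457 (without control replicate 2) to 1897 (without day 15 replicate 2). In T47D the 277 calls of day 3 were 921 with the 2 groups alone and 182 to 214 with a library left out. The 1659 calls of day 15 were 996 with the 2 groups alone and 930 to 3705 (without day 15 replicate 2). The 824 calls of day 15 against day 3 were 549 without trend or robust moderation, 463 with the 2 groups alone and 403 to 2604 (without day 15 replicate 2). Without trend or robust moderation, some day 15 calls in MDA-MB-231 were lost that were kept when any 1 library was left out. They were those of CASP8 (adjusted p = 0.0726), TNFSF10 (0.0801), AQP3 (0.0555), PDGFRB (0.0752), KRT18 (0.0688) and VIM (0.0582). The cause was not tested.

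With the replicate number as a replicate block, the counts were 637 and 2273 in MDA-MB-231 at day 3 and day 15, and 511 in T47D for day 15 against day 3. Deviations of same-numbered libraries from their group means had r from -0.016 to 0.103 in MDA-MB-231 and from -0.185 to 0.036 in T47D. Differently numbered libraries had r from -0.119 to 0.078 and from -0.115 to 0.175. The ranges overlap, so whether same-numbered libraries are paired was not settled. The block changed no T47D call of the 8 genes. With it the day 15 calls named in that line for TFAP2C (adjusted p = 0.0514), CST3 (0.0537), EZR (0.0602), PODXL (0.102) and TMEM268 (0.104) were lost. Depth limits CD34, AQP5, LGALS12 and MAGEC1 most, since they had fewer than 240 reads in each MDA-MB-231 library.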
